A study of Mus musculus with 4 samples.

Results

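YAP/TEAD target genes and core genes of the Hippo pathway were examined in mouse podocytes treated with IL-12. The set holds 10 genes, found by their symbols among the 54532 genes of the deposited count table, and all 10 were among the 14095 genes that passed the filter on low counts. RNA-sequencing was performed on the MPC5 cell line, a conditionally immortalized mouse podocyte line that grows at a permissive temperature with interferon-γ and is allowed to differentiate without them. Podocytes in the IL-12 group (2 libraries) received IL-12 at 400 ng/ml over 6 h, and podocytes in the control group (2 libraries) received saline. The labels name no genetic change for either group. All libraries are of 1 cell line, and separate cultures are not stated for libraries within a group, so the p-values measure the spread between these libraries, which may be technical.

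The Hippo pathway is a kinase cascade in which the MST kinases, with the scaffold SAV1, activate the LATS kinases and their MOB1 partners. LATS kinases phosphorylate the coactivators YAP and TAZ and so keep them out of the nucleus. Unphosphorylated YAP and TAZ bind the TEAD factors on DNA and switch on target genes, among which Ctgf, Cyr61 and Ankrd1 are the classical readouts, while Lats2, Amotl2 and Ajuba encode proteins that act back on the pathway. In podocytes, which are exposed to mechanical load and are rich in actin, YAP is known to be needed for survival of the cells. The activity of YAP and TAZ is set largely by phosphorylation and localization, which RNA-sequencing does not measure.

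To show which of these genes carry the DNA motif that TEAD factors bind, promoter windows of RefSeq (GRCm38.p6, 250 bases before to 50 bases after a transcription start site) were searched for GGAATG on both strands. Windows were found for 8 of the 10 genes, and Ctgf and Tead1 had no entry. The motif was present in 9 of the 10 windows of these 8 genes, at least 1 window for every gene, against 14.7% of the 32851 windows in the table. The windows of Wwtr1 overlap and hold the same match. Several of these genes are named as YAP/TEAD targets because TEAD binding was described for them. The high share is thus a description and not a test. It did not extend to the wider list of other YAP/TEAD target genes described below, where 2 of 10 genes with a window held the motif. Of the other pathway genes with a window, 5 of 17 in the kinase cascade and its regulators held it. Among the TEAD and VGLL genes, 4 of 6 did. A match in these windows therefore did not mark target genes in general. The shares by gene count a match in any window of a gene, whereas the 14.7% counts single windows. No share by gene was computed for all genes, so the lists have no background of the same unit. The AP-1 motif TGANTCA, which often lies near TEAD motifs, was in none of the 10 windows of the 8 genes and in 7.8% of all windows. The 250 bases upstream of the start site are shown for 2 target genes whose expression rose, Cyr61 and Ankrd1, for the target gene that fell, Amotl2, and for the coactivator gene Yap1, which did not pass the test. They are written 5′ to 3′ on the strand of the gene, and capitals mark the motif or, on the opposite strand, its reverse complement.
Cyr61 (GRCm38, chr3:145649986-145650235, minus strand): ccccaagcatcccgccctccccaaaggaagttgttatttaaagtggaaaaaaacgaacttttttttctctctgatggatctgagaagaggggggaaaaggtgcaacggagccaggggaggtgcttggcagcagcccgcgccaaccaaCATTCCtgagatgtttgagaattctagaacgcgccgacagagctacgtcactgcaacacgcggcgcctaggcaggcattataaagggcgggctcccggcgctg
Ankrd1 (GRCm38, chr19:36119845-36120094, minus strand): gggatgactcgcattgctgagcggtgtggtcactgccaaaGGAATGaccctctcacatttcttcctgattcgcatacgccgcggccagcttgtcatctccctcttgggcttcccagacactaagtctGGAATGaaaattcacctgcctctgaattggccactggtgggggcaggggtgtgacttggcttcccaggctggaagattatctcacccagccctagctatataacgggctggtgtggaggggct
Amotl2 (GRCm38, chr9:102717554-102717803, plus strand): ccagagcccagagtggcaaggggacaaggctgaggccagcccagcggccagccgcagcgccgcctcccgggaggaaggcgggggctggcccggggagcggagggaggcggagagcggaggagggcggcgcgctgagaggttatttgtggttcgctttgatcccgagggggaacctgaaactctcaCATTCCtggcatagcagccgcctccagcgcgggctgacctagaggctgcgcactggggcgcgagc
Yap1 (GRCm38, chr9:8004597-8004846, minus strand): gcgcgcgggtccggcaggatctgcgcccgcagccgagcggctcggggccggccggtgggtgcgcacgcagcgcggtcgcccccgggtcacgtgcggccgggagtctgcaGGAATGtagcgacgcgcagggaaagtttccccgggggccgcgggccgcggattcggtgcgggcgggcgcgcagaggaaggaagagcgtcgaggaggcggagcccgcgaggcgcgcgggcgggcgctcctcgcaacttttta

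The matches began 103 bases upstream of the start site in Cyr61, 210 and 123 bases upstream in Ankrd1, 65 bases upstream in Amotl2 and 141 bases upstream in Yap1. In Ajuba they began 186 and 164 bases upstream, in Axl 233 bases upstream and in Lats2 4 bases downstream of 1 of its 2 start sites. Genes that rose, the gene that fell and genes that did not pass the test all held the motif. As every gene with a window held it, its presence could not separate them, and Ctgf and Tead1 could not be searched.

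**Figure D1:**
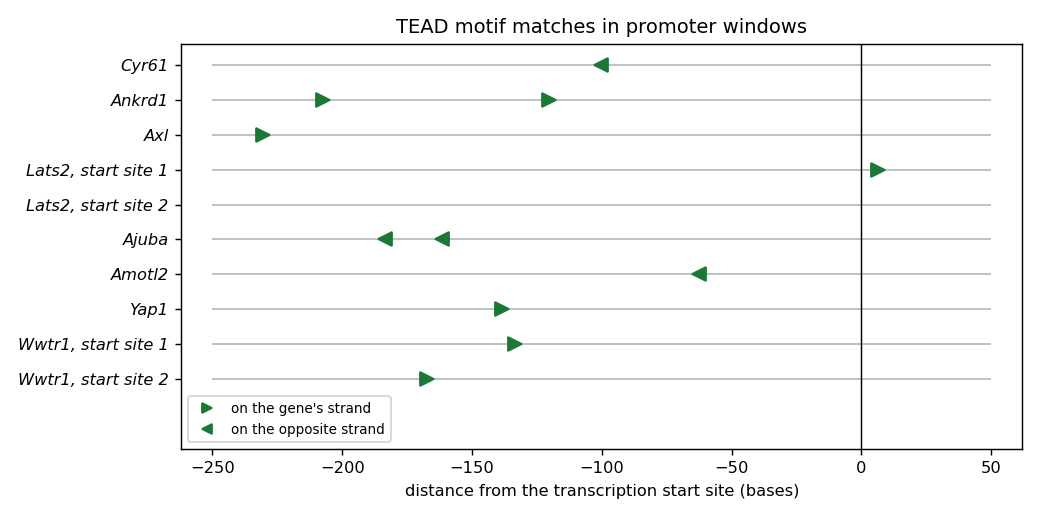
Position of matches to the TEAD motif (arrowheads, pointing in the direction of the match) in each promoter window, with the distance from the transcription start site in bases on the horizontal axis and 1 line per window. Of the 10 windows of 8 genes, 9 hold at least 1 match, and the second start site of Lats2 holds none.

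Ctgf was also measured by qPCR in the study, and the primers listed for it are shown because they mark which part of the transcript that assay reads. Both carry the same name, that of a forward primer, in the list, but the second matches the opposite strand.
Ctgf primer, sense strand: gggcctcttctgcgatttc
Ctgf primer, opposite strand: atccaggcaagtgcattggta
In the GENCODE release M21 reference transcript of Ctgf the first primer matches bases 515 to 533 in exon 2 (chr10:24596043-24596061 of GRCm38), and the second matches bases 645 to 665 in exon 3 (chr10:24596421-24596441). The product of 151 bases thus spans an intron of the gene. The deposited counts cover the whole gene.

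The depth was similar in all libraries, with total counts between 18355379 and 20098012, and a count of 3 corresponds to 0.149 to 0.163 CPM (counts scaled to a common depth), a limit that covers counting error only. The 10 genes were far above this floor, with at least 1693 counts in every library. Of the podocyte markers, Nphs1 (nephrin), Ptpro, Lmx1b and Tcf21 had 10 counts or fewer in every library, and Wt1 had between 0.199 and 0.858 CPM. Synpo, Kirrel, Actn4, Cd2ap and Podxl were present. The summed level of 14 podocyte markers was 2938 to 2946 CPM in the control group and 2896 to 2910 CPM in the IL-12 group. The actin-associated Synpo (synaptopodin) fell, from 489 and 470 CPM in the control group to 302 and 307 CPM in the IL-12 group. Among 6 tubular epithelium markers, Lrp2 and Cdh16 were present and 4 had 10 counts or fewer in every library. Their summed level was 830 to 866 CPM in the control group and 639 to 677 CPM in the IL-12 group. The summed level of 8 mesangial or fibroblast markers was 65.0 to 65.1 CPM and 75.8 to 84.9 CPM, with Pdgfra, Col3a1, Itga8, Dcn and Lum at 10 counts or fewer. All 6 leukocyte markers summed to at most 0.763 CPM in a library, and of 6 endothelial markers 5 had 10 counts or fewer and the sum was 8.79 to 10.7 CPM. The part of these shifts in the results given here was not tested. In bulk RNA, fewer cells of a type and less RNA per cell cannot be told apart.

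The comparison asked how the expression of these genes differed between the IL-12 group and the control group. The target genes Ctgf, Ankrd1, Cyr61 and Lats2 rose by between 33.2% and 192.7%. Axl and Ajuba rose by 7.5% and 6.3%, and Amotl2 fell by 5.5%. The genes of the coactivators, Yap1 and Wwtr1, and of their DNA-binding partner, Tead1, did not pass the test, and their levels differed by at most 1.0% between the group means of the fit. Thus 6 of the 10 genes were higher and 1 was lower at an adjusted p below 0.05 (edgeR's quasi-likelihood test, Benjamini-Hochberg adjustment over 14095 genes), against 16.1% of all genes tested that were higher and 14.4% that were lower. Of all calls, 52.8% were higher with TMM scaling and 40.5% with total counts only, and of the 10 genes 4 were then called higher. Highly expressed genes passed this test more often. Among the 2393 genes at or above 106 CPM, the mean level of the least abundant of the 10 genes, 32.8% were higher and 21.6% were lower. Only Ctgf changed over 2-fold, as did 1.61% of all genes. The groups did not overlap in 7 of the 10 genes and in 62.9% of all genes tested. The median log2 fold change was 0.097 over the 10 genes and -0.002 over all genes tested. Earlier results of these data were known when the 10 genes and the lists described below were chosen. Setting their shares beside those of all genes is thus a description and not a test.

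**Figure D2:**
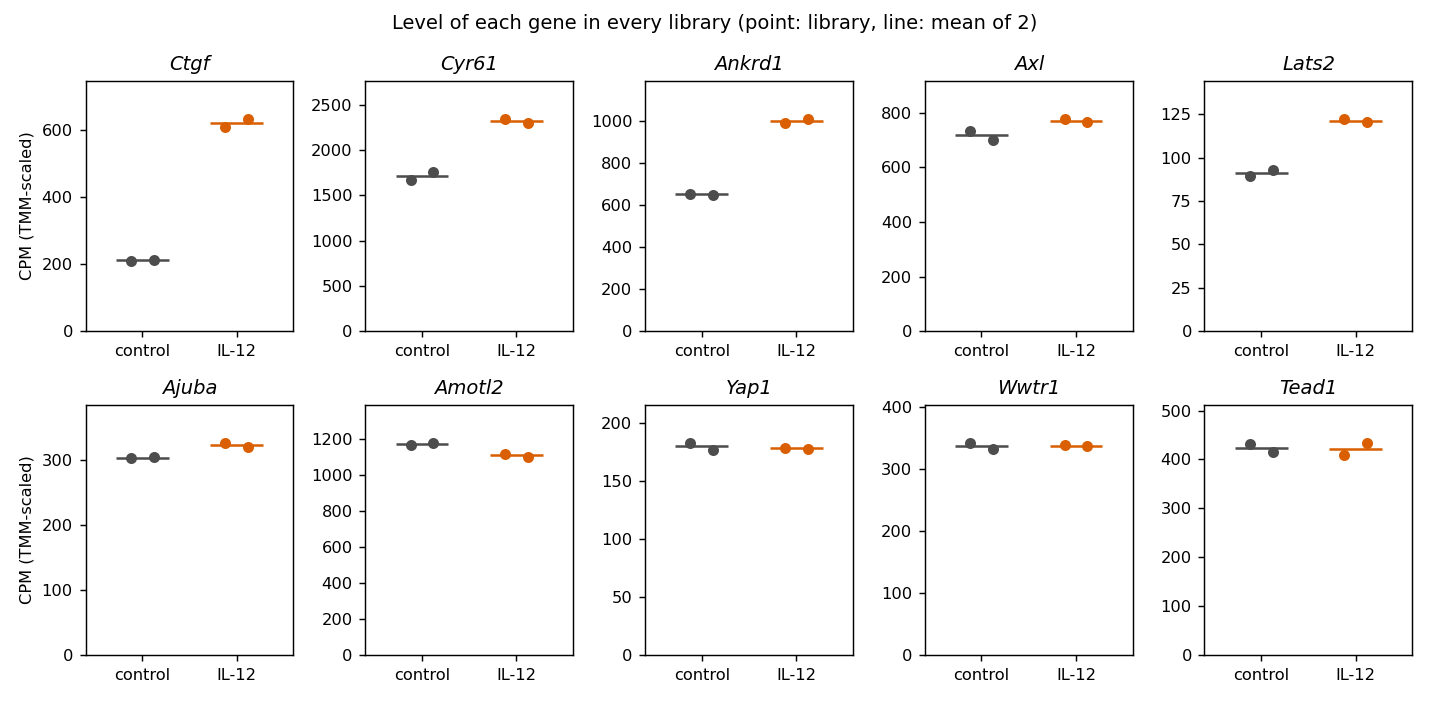
Level of each gene in CPM (counts scaled to a common depth by the TMM method, vertical axis starting at 0) in the 2 control libraries and the 2 IL-12 libraries, with a line at the mean of each group. The groups lie far apart for Ctgf and Ankrd1, close together for Axl, Ajuba and Amotl2, and overlap for Yap1, Wwtr1 and Tead1.

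The secreted CCN proteins came first. Ctgf (ENSMUSG00000019997, chromosome 10 from 24595442 to 24598683) encodes connective tissue growth factor, a matricellular protein known for its role in fibrosis. Counts were 3987 and 4036 in the control libraries against 12059 and 11439 in the IL-12 libraries, or 210 and 214 CPM against 610 and 632 CPM. Every IL-12 library was thus far above every control library. The fold change was 2.93, or 1.55 on the log2 scale (standard error (SE) 0.03, 95% interval 1.48 to 1.62) and its adjusted p in the quasi-likelihood test of edgeR was 1.33e-16. By p-value it was at rank 2 of all genes tested.

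Cyr61 (ENSMUSG00000028195, chromosome 3 from 145646976 to 145649981) encodes the closest relative of Ctgf in the set, a matricellular protein that binds integrins. Its level was 1668 and 1756 CPM in the control libraries and 2340 and 2293 CPM in the IL-12 libraries, which did not overlap. Cyr61 rose 1.35-fold, with a log2 fold change of 0.44 (SE 0.03, 95% interval 0.38 to 0.49, adjusted p = 4.72e-10 by the same edgeR test). The control libraries differed more from each other in Cyr61 (SD 62.9 CPM) than the IL-12 libraries did (SD 32.9 CPM), and both SDs were small against the difference of the means. Since the ratio of 2 genes within a library needs no scaling, the reads of Ctgf were also expressed per 100 reads of Cyr61. The ratio was 12.6 and 12.2 in the control libraries and rose to 26.1 and 27.6 in the IL-12 libraries. The mean ratio was thus 2.16-fold higher in the IL-12 group, which is the fold change of Ctgf relative to that of Cyr61 and does not depend on the scaling. The ratios within libraries are given as values and were not tested.

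The other target genes that do not encode regulators of the pathway were Ankrd1 and Axl. Ankrd1 (ENSMUSG00000024803, chromosome 19 from 36111965 to 36119844) encodes an ankyrin repeat protein of the nucleus and the sarcomere that responds to stretch in muscle. Its level was 655 and 648 CPM in the control libraries against 991 and 1009 CPM in the IL-12 libraries, and the libraries of a group differed by little. Ankrd1 rose 1.53-fold, with a log2 fold change of 0.62 (SE 0.03, 95% interval 0.56 to 0.67, adjusted p = 5.92e-12 by the same edgeR test). Per 100 reads of Cyr61 there were 39.2 and 36.9 reads of Ankrd1 in the control libraries and 42.4 and 44.0 reads in the IL-12 libraries, so the mean ratio was 1.13-fold higher in the IL-12 group.

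Axl (ENSMUSG00000002602, chromosome 7 from 25757273 to 25788705) encodes the receptor tyrosine kinase that binds GAS6. It had 734 and 700 CPM in the control libraries and 777 and 766 CPM in the IL-12 libraries. The groups did not overlap, but the gap between them was no wider than the gap between the control libraries. Its log2 fold change of 0.10 (SE 0.03, 95% interval 0.04 to 0.17) had an adjusted p of 0.00997 in the same edgeR test. The call was lost with scaling by total counts only (log2 fold change 0.064, adjusted p = 0.112 from edgeR) and in 4 other settings, among them the fits without control replicate 2 (adjusted p = 0.18) and without IL-12 replicate 1 (adjusted p = 0.109).

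Among target genes that encode regulators of the pathway, Lats2 rose, Ajuba rose by little and Amotl2 fell by little. Lats2 (ENSMUSG00000021959, chromosome 14 from 57689662 to 57758388) encodes 1 of the 2 LATS kinases, which inhibit YAP and TAZ. It was the least abundant of the 10 genes, with 89.4 and 92.8 CPM in the control libraries and 122 and 120 CPM in the IL-12 libraries. The groups were well separated. Lats2 rose 1.33-fold, with a log2 fold change of 0.41 (SE 0.05, 95% interval 0.32 to 0.51, adjusted p = 1.24e-06 by the same edgeR test). Its paralogue Lats1, which the rule for named genes did not pick, had 91.3 and 90.2 CPM in the control libraries and 94.1 and 108 CPM in the IL-12 libraries, with log2 fold change 0.16 (SE 0.06, adjusted p = 0.0457 by the same edgeR test). There were 97.9 and 103 reads of Lats2 per 100 reads of Lats1 in the control libraries, against 130 and 111 in the IL-12 libraries. The ratio was higher in both IL-12 libraries, which also differed from each other by more than the control libraries did. Lats2 overlaps a processed pseudogene and a snoRNA on the opposite strand, with 160 and 63 counts over the 4 libraries against 8041 for Lats2. Whether reads were counted by strand is not stated. The protein-coding gene Gm49361 overlaps Lats2 on the same strand and had 0 counts. How reads that match both genes were assigned is not stated either.

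Ajuba (ENSMUSG00000022178, chromosome 14 from 54567472 to 54577558) encodes a LIM domain protein that binds LATS kinases at cell junctions. It had 302 and 305 CPM in the control libraries against 326 and 319 CPM in the IL-12 libraries. The log2 fold change of Ajuba was 0.09 (SE 0.03, 95% interval 0.02 to 0.16, adjusted p = 0.0458 by the same edgeR test), and only 3 of 14 alternative settings called it. Leaving out any 1 library ended the call (adjusted p between 0.0622 and 0.202 from edgeR). Amotl2 (ENSMUSG00000032531, chromosome 9 from 102716672 to 102733418) encodes an angiomotin, which binds YAP and holds it in the cytoplasm. Its level was 1167 and 1177 CPM in the control libraries and 1114 and 1100 CPM in the IL-12 libraries, so it was lower in both. The log2 fold change was -0.08 (SE 0.03, 95% interval -0.13 to -0.03, adjusted p = 0.0173 by the same edgeR test). None of the 4 fits that left out 1 library called Amotl2 (adjusted p between 0.0516 and 0.107 from edgeR). Its paralogue Amotl1 rose, and per 100 reads of Amotl1 there were 644 and 657 reads of Amotl2 in the control libraries, against 500 and 488 in the IL-12 libraries. The balance of these angiomotins thus shifted 0.76-fold toward Amotl1 in both IL-12 libraries.

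Transcripts of the coactivators and of TEAD1 did not pass the test. Yap1 (ENSMUSG00000053110, chromosome 9 from 7931999 to 8004596) had 183 and 177 CPM in the control libraries and 179 and 178 CPM in the IL-12 libraries. The control libraries enclosed the IL-12 libraries. Its log2 fold change was -0.015, with a 95% interval of -0.095 to 0.066 (adjusted p = 0.823 from edgeR's quasi-likelihood test). Wwtr1 (ENSMUSG00000027803, chromosome 3 from 57455649 to 57575910), the gene of TAZ, had 342 and 332 CPM against 338 and 337 CPM. Its log2 fold change was 0.0022, with a 95% interval of -0.065 to 0.070 (adjusted p = 0.969 by the same edgeR test). Tead1 (ENSMUSG00000055320, chromosome 7 from 112679318 to 112906807) had 432 and 415 CPM against 408 and 434 CPM, so the IL-12 libraries enclosed the control libraries. Its log2 fold change was -0.0077, with a 95% interval of -0.080 to 0.065 (adjusted p = 0.898 by the same edgeR test). For these 3 genes a change of over 2-fold lies outside the intervals by a wide margin, while changes of a few percent lie within them. The sign of these small differences turned with the scaling or the libraries used (Wwtr1 was at -0.039 with total counts only). Annotated transcripts on the opposite strand overlap Yap1 (1 count against 13574 over the 4 libraries), Tead1 (218 against 31934) and Ctgf (5 against 31521). A miRNA gene overlaps Tead1 on the same strand and had 0 counts. The reads of Yap1 per 100 reads of Wwtr1 were 53.5 and 53.4 in the control libraries, against 53.0 and 52.7 in the IL-12 libraries, so the ratio of the coactivator transcripts moved by 0.988-fold. Per 100 reads of Yap1, in contrast, reads of Ctgf rose from 115 and 121 to 340 and 356.

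**Figure D3:**
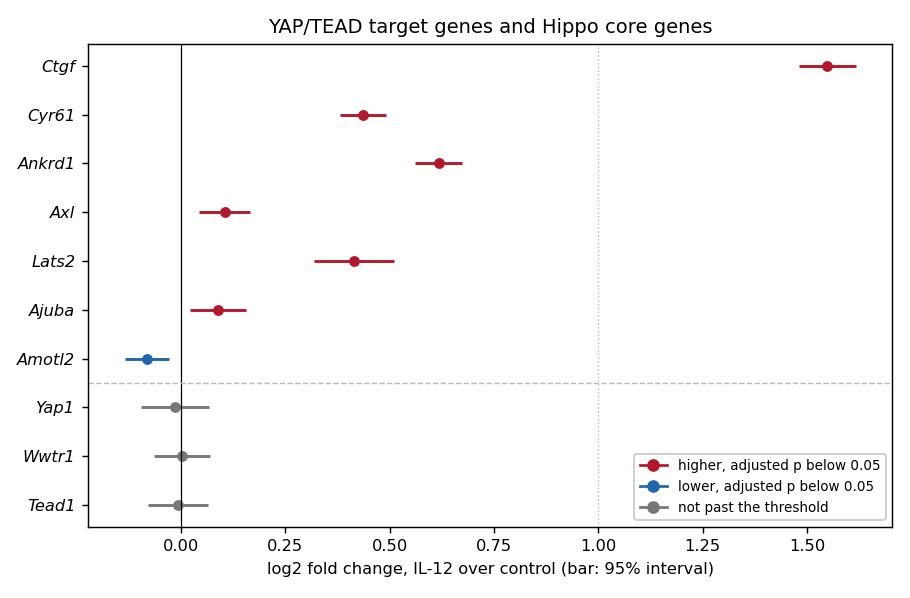
Log2 fold change of each gene between the IL-12 group and the control group (horizontal axis) with its 95% interval from edgeR, coloured by the call at an adjusted p below 0.05. The dashed line separates target genes (above) from Yap1, Wwtr1 and Tead1 (below), and only Ctgf lies beyond the dotted line at a log2 fold change of 1.

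Levels of different genes were compared per gene length, with the FPKM values that the authors deposited. In the control group the order was Cyr61 (848 ± 32.2 FPKM, SD, n = 2), Ankrd1 (369 ± 1.95), Amotl2 (186 ± 1.33), Axl (142 ± 4.62), Ajuba (83.2 ± 0.549), Ctgf (74.1 ± 0.929), Wwtr1 (70.5 ± 1.46), Tead1 (31.2 ± 0.857), Yap1 (19.5 ± 0.417) and Lats2 (13.1 ± 0.362). No neighbours in this order overlapped between libraries, although Ctgf and Wwtr1 were close. In the IL-12 group Ctgf moved from place 6 to place 3, with 217 ± 5.64 FPKM (SD, n = 2), above Amotl2 (176 ± 1.61) and Axl (153 ± 1.52), and the other genes kept their order. Cyr61 stayed the most abundant, with 1148 ± 16.2 FPKM, and Lats2 the least, with 17.4 ± 0.180 FPKM. Wwtr1 was thus present at several times the level of Yap1 in both groups, on the FPKM scale. These values divide by the length of all annotated exons of a gene, which was 13570 bases for Tead1 and 9257 bases for Yap1 against 1765 bases for Ankrd1, so a gene with long exons that are seldom used would read low.

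**Figure D4:**
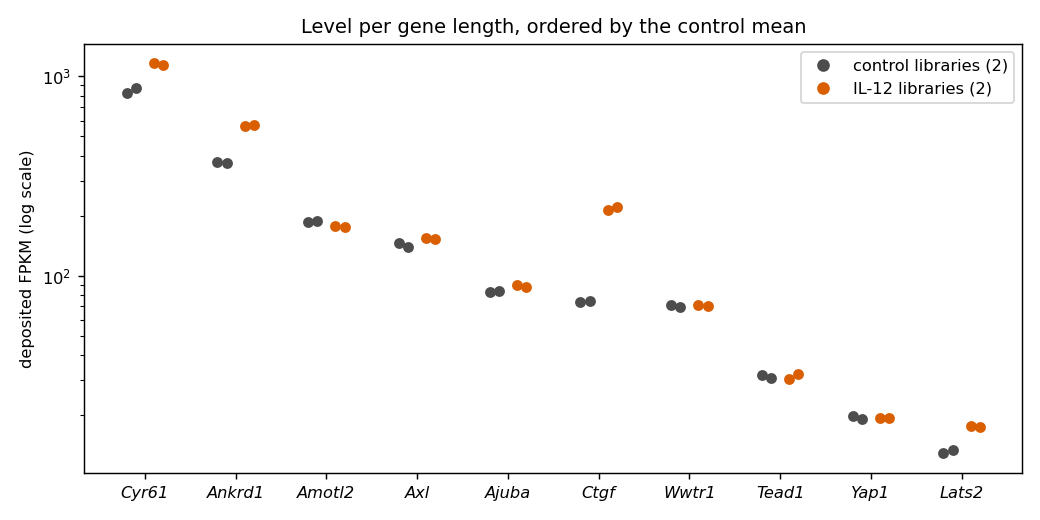
Deposited FPKM of each gene in the 4 libraries on a log scale, ordered by the mean of the control group. Ctgf crosses Amotl2, Axl and Ajuba between the groups, and the levels run from 12.8 FPKM for Lats2 to 1160 FPKM for Cyr61.

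A wider list of 16 YAP/TEAD target genes, a published target signature without the genes above, held genes called in both directions. In the IL-12 group 7 of the 16 were higher, 5 were lower and 4 (Asap1, Foxf2, Gadd45a and Nt5e) did not pass, and the median log2 fold change was 0.060. Over all genes tested 16.1% were higher and 14.4% were lower, and among genes at or above 106 CPM these shares were 32.8% and 21.6%. F3, the gene of tissue factor, which starts coagulation, had 219 and 224 CPM in the control libraries and 310 and 318 CPM in the IL-12 libraries (log2 fold change 0.50, SE 0.03, adjusted p = 2.87e-09 from edgeR's quasi-likelihood test). Dock5, an activator of the GTPase Rac, rose from 52.5 and 51.1 CPM to 80.4 and 87.0 CPM, with a log2 fold change of 0.69 (SE 0.05, adjusted p = 1.85e-08 by the same edgeR test). Myof, which encodes the membrane repair protein myoferlin, rose by 0.29 on the log2 scale (adjusted p = 1.09e-07 by the same edgeR test), and Fjx1 by 0.48 (adjusted p = 0.00541). Fjx1 had at most 12.4 CPM in a library and lost its call in 2 of 14 settings, 1 of them without IL-12 replicate 1 (adjusted p = 0.0657 from edgeR).

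Among target genes that fell, Ptpn14 had the smallest p, and it encodes a phosphatase that binds YAP and restrains it. It had 1252 and 1229 CPM in the control libraries and 963 and 994 CPM in the IL-12 libraries, with log2 fold change -0.34 (SE 0.03, adjusted p = 1.19e-08 by the same edgeR test). Rbms3, an RNA-binding protein gene, fell from 52.6 and 54.4 CPM to 34.3 and 37.5 CPM, with a log2 fold change of -0.58 (SE 0.06, adjusted p = 1.53e-06 by edgeR). Ccdc80, which encodes a secreted matrix protein, and Arhgef17, which encodes a guanine nucleotide exchange factor, had log2 fold changes of -0.20 and -0.18 (adjusted p = 2.21e-06 and 0.000205 by edgeR). The fall of these 4 genes was called in all 14 alternative settings, as was the rise of F3, Dock5 and Myof.

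Upstream of YAP, 23 genes of the kinase cascade and its regulators were examined. Of the 22 that could be tested, 5 were higher, 4 were lower and 13 did not pass, with a median log2 fold change of 0.008. These shares lie near those of all genes (16.1% higher and 14.4% lower) and of genes at or above 106 CPM (32.8% and 21.6%), so the counts are no result about the cascade. Dchs1 had 0 counts in every library, which allows at most 0.149 to 0.163 CPM. Amotl1 rose from 181 and 179 CPM to 223 and 225 CPM (log2 fold change 0.31, SE 0.04, adjusted p = 2.39e-06 from edgeR's quasi-likelihood test). Frmd6, a FERM domain protein gene, Stk4, the gene of MST1, and Mob1a followed with log2 fold changes of 0.22, 0.26 and 0.12 (adjusted p = 4.66e-05, 0.000422 and 0.0226 by the same edgeR test). Wwc1, the gene of KIBRA, which activates LATS kinases, fell from 472 and 490 CPM to 392 and 413 CPM (log2 fold change -0.26, SE 0.03, adjusted p = 7.17e-06 by edgeR). Fat4, an atypical cadherin gene, Sav1 and Amot had log2 fold changes of -0.34, -0.30 and -0.16 (adjusted p = 6.79e-05, 0.000109 and 0.0294 by edgeR). All of these changes were well under 2-fold, and those of Mob1a and Amot were called in 6 and 8 of 14 alternative settings. Mob1a was not called without control replicate 2 (adjusted p = 0.17 from edgeR), IL-12 replicate 1 (0.0519) or IL-12 replicate 2 (0.125). Amot was not called without control replicate 1 (adjusted p = 0.168 from edgeR) or IL-12 replicate 1 (0.257).

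Of 7 genes of TEAD factors and their VGLL cofactors, Vgll1 and Vgll2 had 0 counts in every library. Vgll3, a cofactor that binds TEAD in place of YAP, rose from 122 and 133 CPM in the control libraries to 217 and 216 CPM in the IL-12 libraries. Its log2 fold change of 0.77 (SE 0.04, adjusted p = 1.71e-10 from edgeR's quasi-likelihood test) was larger than that of any gene of the set except Ctgf. Vgll4, which competes with YAP for TEAD, fell from 99.4 and 97.2 CPM to 81.2 and 78.2 CPM (log2 fold change -0.30, SE 0.05, adjusted p = 7.81e-05 by edgeR). Among the TEAD genes, Tead2 fell by 0.14 on the log2 scale (adjusted p = 0.0115 by the same edgeR test), and was not called without control replicate 1 (adjusted p = 0.0951) or IL-12 replicate 1 (0.078). Tead4 had 22.7 and 24.3 CPM in the control libraries and 30.7 and 26.1 CPM in the IL-12 libraries. Its log2 fold change was 0.28 (adjusted p = 0.0234 in the edgeR test), and dropped to 0.16 without IL-12 replicate 1 and 0.23 without control replicate 1. Tead4 lost its call in both of these fits. The call was also lost with total counts only, DESeq2, no filter and either FPKM setting, and 7 of 14 alternative settings kept it. Tead3 did not pass (log2 fold change -0.12, adjusted p = 0.0761 by edgeR). Together with the kinase cascade, 7 of the 27 Hippo pathway genes tested outside the 10 were higher and 6 were lower, which is likewise near the shares of all genes (16.1% and 14.4%) and of genes at or above 106 CPM (32.8% and 21.6%).

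**Figure D5:**
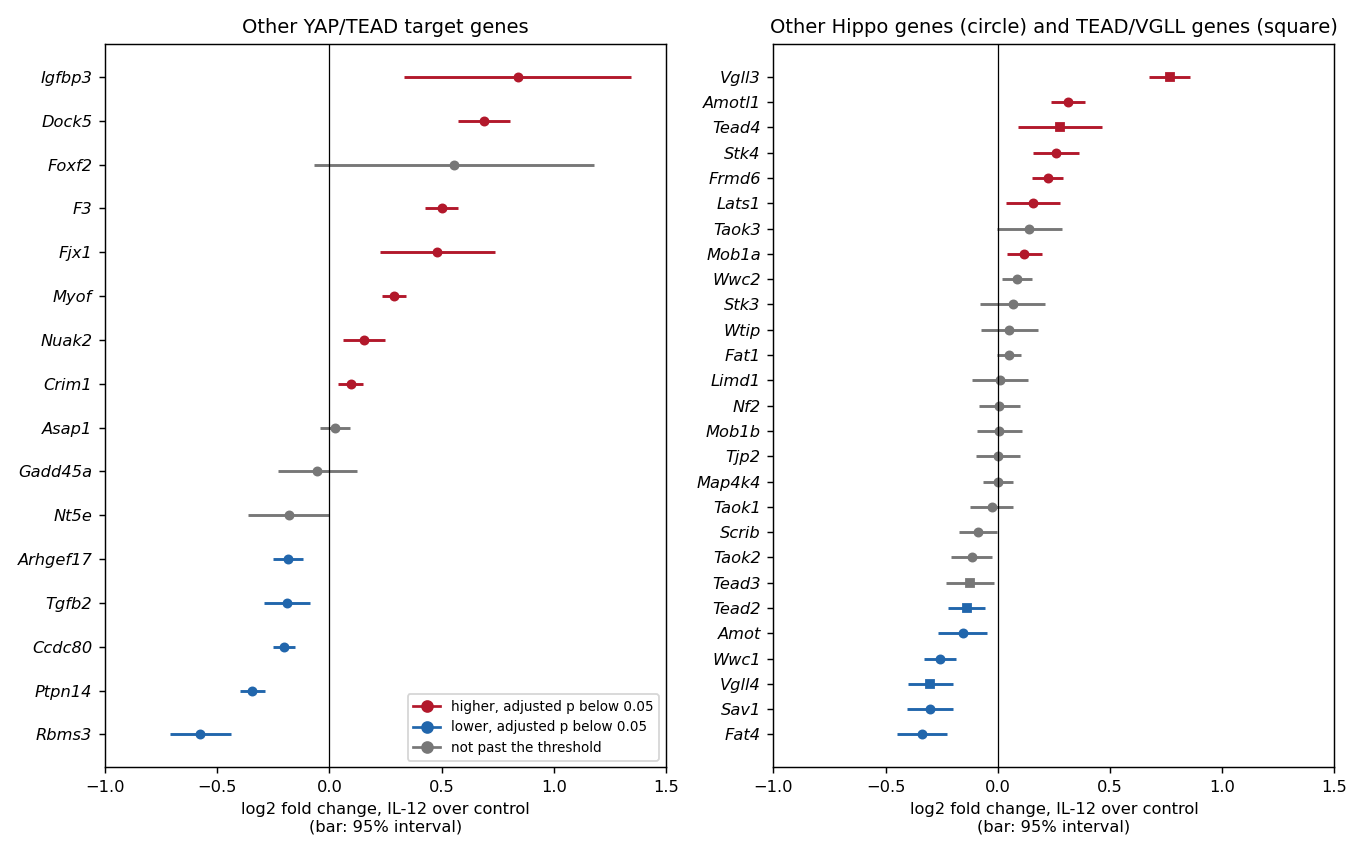
Log2 fold change between the IL-12 group and the control group (horizontal axis, bars are 95% intervals from edgeR) of the 16 other target genes (left) and of 27 other Hippo, TEAD and VGLL genes (right), each ordered by value. Genes lie on both sides of 0 in either panel, with Vgll3 the highest on the right and Rbms3 the lowest on the left.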

How the data were processed

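RNA-sequencing of 2 control and 2 IL-12 libraries was analysed. Per the deposited files, the authors gave each gene an unnormalized read count and an FPKM value. The submitters' processing notes name HISAT2, StringTie and mm9 with no versions or roles, and the counting program, its use of strand and its handling of reads that match several genes are not given in the sources used here. The coordinates in the tables equal those of GENCODE release M21 (GRCm38) for 98.3% of 54409 genes and for 9 of the 10 genes described here, Ankrd1 differing at both ends, so coordinates are given in GRCm38 and not in mm9.

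Counts were tested with edgeR 4.0.16 in R 4.3.3 (filterByExpr with a minimum of 10 counts and 15 in total, TMM factors between 0.985 and 1.02, quasi-likelihood test, Benjamini-Hochberg adjustment over 14095 genes, no replicate block). The SE of a log2 fold change was derived from the F statistic. TMM factors scaled the CPM values, library totals those of genes that failed the filter. Within both groups, counts differed beyond sampling noise (chi-square per degree of freedom 2.13 and 2.41), so no library was taken for a second deposit of another. This does not show that they are separate cultures. Levels between genes were described by the deposited FPKM. Motifs were searched in RefSeq promoter windows. Alternatives were DESeq2 1.42.0, limma 3.58.1 (voom, and log2 of FPKM plus 1 or 0.1), other scalings and filters, the replicate block and each library left out. Figures were drawn with matplotlib 3.10.9.

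The 10 genes and the lists were chosen with earlier results of these data known. Named genes are the 10, and in each list up to 4 genes with the smallest p in each direction among those called. Genes outside this rule are marked or belong to a small remainder of a list. One podocyte marker is not reported here by name.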

Additional observations from a re-analysis of the deposited data

How the results depend on the processing

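Ctgf, Cyr61, Ankrd1 and Lats2 were called higher in all 14 alternative settings, with log2 fold changes between 1.51 and 1.58, 0.40 and 0.47, 0.58 and 0.63, and 0.37 and 0.44. Axl was called in 9, Ajuba in 3 and Amotl2 in 8 of them, each with its direction kept. Yap1, Wwtr1 and Tead1 were called in none, and their small differences changed sign. Wwtr1 was -0.013 with upper-quartile scaling, -0.039 with total counts only and between -0.020 and 0.027 with a library left out. With a library left out, Yap1 was between -0.037 and 0.011 and Tead1 between -0.051 and 0.037.

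Over all genes, the counts of higher, lower and over 2-fold calls (2267, 2030 and 227) became 1492, 1213 and 103 with the DESeq2 Wald test. With log2(FPKM + 1) there were 1280 lower and 38 over 2-fold, and with log2(FPKM + 0.1) 1277 and 141. Leaving out each library gave 1404 to 2010 higher, 1124 to 1712 lower and 144 to 254 over 2-fold, the smallest counts without IL-12 replicate 1. With total counts only, 40.5% of calls at any fold were higher, against 52.8% with TMM, and the median of all genes moved by -0.041 on the log2 scale.

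The count of lower genes among the 10 was 0 with both FPKM settings and 0 without any 1 library. Other target genes called higher numbered 4 with DESeq2 and 4 to 7 with a library left out, the lowest without control replicate 1. Other Hippo pathway genes called higher numbered 4 with total counts only, with DESeq2, with no filter and with either FPKM setting, and the cause was not tested. Same-numbered libraries share only a number (correlation of their deviations -0.03). With the replicate block 241 genes changed over 2-fold, and of the 10 genes 5 were higher and 1 was lower, as Ajuba was not called (adjusted p = 0.0928 from edgeR). A fit without 1 library leaves a group with a lone library, which is assumed to vary like the other group.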
